A study of Mus musculus with 101 samples.

Results

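Epididymal white fat of mice given a liver-directed vector for mouse Inhbe (mInhbe AAV) was compared with the same depot of mice given a GFP vector (GFP AAV), across all genes. The members were chosen by depot and vector from the sample titles, which gave 10 mInhbe AAV and 10 GFP AAV libraries, 20 of the 101 in the series. All 20 came from male C57BL/6NTac mice of WT genotype on chow. The vectors were adeno-associated viruses of serotype AAV8, made to drive expression in the liver, and the promoter, the vector dose, the age of the mice and the time since injection are not given. The same 2 vectors in subcutaneous fat, with 10 libraries each, and 7 Inhbe KO against 8 WT epididymal libraries on chow from a separate experiment are set beside them. Replicates are named as biological in the labels, and the series text gives n = 10 for each vector group and the same groups for both depots.

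Inhbe encodes the inhibin beta E subunit, whose dimer is activin E, a TGF-beta family ligand made mainly by hepatocytes. Activins act through type II receptors and the type I receptors ALK4, encoded by Acvr1b, and ALK7, encoded by Acvr1c, which phosphorylate SMAD2 and SMAD3. ALK7 is abundant in mature fat cells, and mice with impaired ALK7 signalling are known for greater fat breakdown and smaller fat depots. The series title names body fat distribution and adipose lipolysis as the subject, and the comparison asks what added Inhbe did to the transcriptome of the epididymal depot.

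Levels are given as counts per 1000000 of the library total (CPM). The libraries held 14667500 to 19549200 estimated counts (to 6 digits) with mInhbe and 16262000 to 18865100 with GFP, so that 3 counts stood for 0.153 to 0.205 CPM. The fat-cell gene Adipoq had 1178 to 2556 CPM (median 1862) with mInhbe and 1300 to 2592 CPM (median 1905) with GFP, so this defining marker of the labelled tissue was abundant in all 20. Every library also held transcripts of other tissues, which are plotted below by marker list. The summed level of 20 epididymis genes was 2774 to 29300 CPM (median 6644) with mInhbe and 4.31 to 13510 CPM (median 7111) with GFP, where library 7 lay at 4.31 and the next lowest at 3393. GFP library 8 stood apart in having 787 CPM of the brown fat gene Ucp1, where no other GFP library passed 5.38 and the mInhbe libraries had 0 to 16.2, and a thermogenic sum of 1596 CPM against 50.4 in the next highest. The same library was high for skeletal muscle (4236 CPM), for the B cell gene Cd79a (14.4 CPM) and for the sperm gene Prm1 (47.7 CPM). Results that rest on GFP libraries 7 and 8 are therefore given with and without them.

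**Figure D1:**
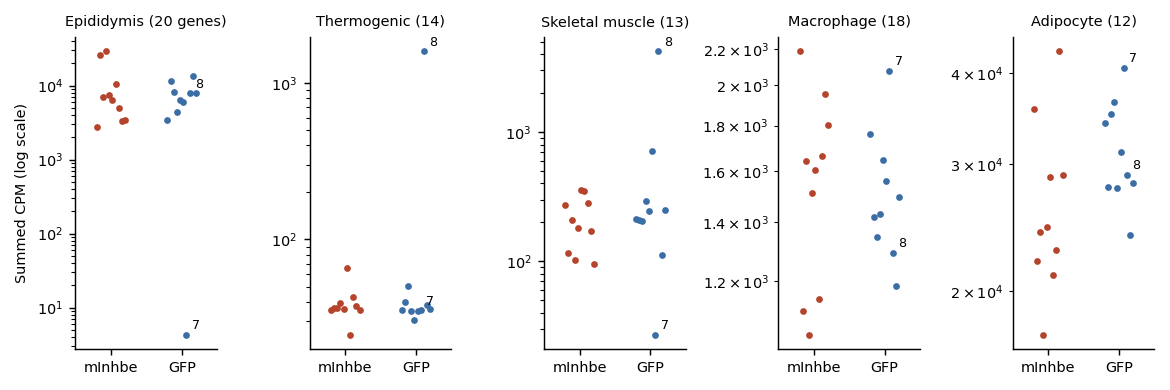
Summed CPM of 5 marker lists (log axis) in each epididymal library, mInhbe AAV left of GFP AAV, with GFP libraries 7 and 8 numbered. GFP library 7 lies at 4.31 CPM for epididymis and GFP library 8 at 1596 CPM for thermogenic genes, far from the rest of the GFP group.

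Inhbe itself (Entrez 16326, chromosome 10) was found in 10 of 10 mInhbe libraries, with 4 to 232 counts (median 31), and in none of the 10 GFP libraries. This was 0.240 to 15.8 CPM (median 1.73), and mInhbe library 5 held the highest level. With the counts of each group summed and 3 counts taken as the limit for all GFP libraries together, the level was at least 161-fold higher with mInhbe. With all libraries the gene was too low for the fit with a low-count filter and had an adjusted p of 0.00695 in edgeR's quasi-likelihood test without one. Whether these transcripts were made in fat or carried from elsewhere was not tested. The liver gene Alb had 1.38 to 4.25 CPM with mInhbe and 2.62 to 7.69 CPM with GFP and was not called (-0.63 ± 0.23, adjusted p = 0.285).

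The relation of the Inhbe level to 8 responding genes was computed over the 10 mInhbe libraries. No relation passed the test after adjustment over the 8. The largest was with Slc5a7, at Pearson's r = -0.71 (permutation p = 0.031, adjusted p = 0.18) and Spearman's rho = -0.39 (permutation p = 0.262, adjusted p = 0.524). It rested on libraries 4 and 5, the farthest from the median Inhbe level, since r without them was -0.00584.

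Acvr1c, the gene of the ALK7 receptor (Entrez 269275, chromosome 2), had 65.4 to 281 CPM (median 108) with mInhbe and 138 to 417 CPM (median 204) with GFP. Of the mInhbe libraries 8 lay below the lowest GFP library, and mInhbe libraries 5 and 10 lay within the GFP range. The log2 fold change of mInhbe over GFP was -0.79 ± 0.24 (SE), which did not pass the test over all genes (adjusted p = 0.144). It passed in only 1 of the 20 fits that left out 1 library, the one without mInhbe library 10 (-0.99, adjusted p = 0.00746). The difference between depots passed in its own test (epididymal minus subcutaneous -0.99, adjusted p = 0.0278), with 0.18 ± 0.17 in subcutaneous fat, and missed the threshold with same-numbered libraries taken as 1 mouse (-1.04, adjusted p = 0.0555).

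Of 14850 genes tested, 173 were called, which is 1.16% of them, at an adjusted p under 0.05 in edgeR's quasi-likelihood test with Benjamini-Hochberg adjustment. Of these 113 rose (0.761% of genes) and 60 fell (0.404%), and 37 rises and 14 falls were at least 2-fold. The median log2 fold change over all genes tested was 0.000276, with quartiles of -0.145 and 0.129. In 19 genes (0.128%) all 10 mInhbe libraries lay above all 10 GFP libraries, in 10 genes (0.0673%) all lay below, and all 29 were called. Leaving out each of the 20 libraries in turn, 78 of the 113 rises and 31 of the 60 falls were called every time. The number of falls was the less stable count. It was 32 without GFP library 1, 33 without GFP library 4, 37 without mInhbe library 2, 39 without mInhbe library 9 and 96 without mInhbe library 10. Without GFP libraries 7 and 8 together 112 genes rose and 53 fell, and 138 of the 165 were among the 173.

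**Figure D2:**
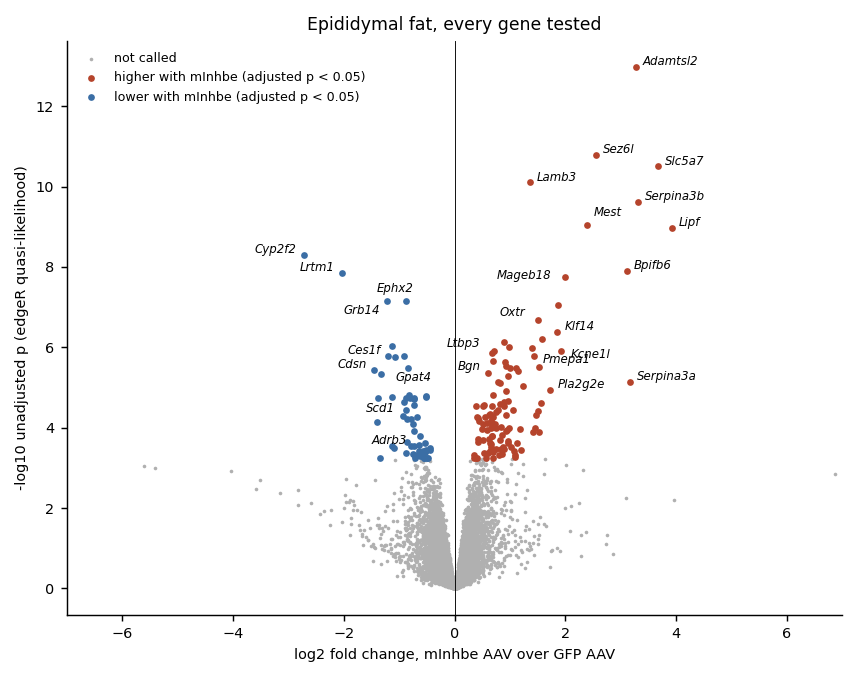
Each of the 14850 genes tested in epididymal fat, by log2 fold change of mInhbe AAV over GFP AAV and by the -log10 of the unadjusted p. The 113 called rises reach further from 0 than the 60 called falls, with Adamtsl2, Sez6l and Slc5a7 at the top, and 1 gene lies outside the plotted range.

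The 3 rises with the smallest p were in a secreted protein, a transporter and a membrane protein, all at a low level in GFP fat. Adamtsl2, a secreted ADAMTS-like glycoprotein of the microfibril network, had 27.1 to 63.9 CPM (median 57.1) with mInhbe and 3.07 to 8.06 CPM (median 5.57) with GFP. The lowest mInhbe library, 2, was still more than 3 times the highest GFP library, and the log2 fold change was 3.27 ± 0.20 (adjusted p = 1.55e-09). Slc5a7, the high-affinity choline transporter best known from cholinergic neurons, had 7.36 to 28.3 CPM (median 20.9) with mInhbe and 0.342 to 3.39 CPM (median 1.37) with GFP. The groups did not overlap, mInhbe library 5 was the lowest of its group, and the log2 fold change was 3.67 ± 0.30 (adjusted p = 1.55e-07). Sez6l, a membrane protein with CUB and sushi domains related to a seizure-associated gene, had 17.9 to 51.5 CPM (median 28.8) with mInhbe and 2.33 to 8.06 CPM (median 5.44) with GFP. Here too no library of one group reached the range of the other, at a log2 fold change of 2.54 ± 0.20 (adjusted p = 1.19e-07).

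Among the falls Cyp2f2, a cytochrome P450 best known from club cells of the airway, was the largest, with 2.16 to 16.6 CPM (median 7.40) under mInhbe and 20.0 to 72.2 CPM (median 49.4) under GFP. The groups did not overlap, although GFP libraries 8 and 10 were the lowest of the GFP group, and the log2 fold change was -2.72 ± 0.29 (adjusted p = 9.47e-06). The promoter windows of these 3 rises and of this fall are shown because SMAD proteins bind a short box, CAGAC, which was searched for in them. They run 5′ to 3′ on the strand of the gene in GRCm38.p6, from 250 bases before an annotated start to 50 after it. Each CAGAC on either strand (GTCTG on the other) is in capitals. The start used need not be the outer end of the gene, since the Sez6l window lies inside the RefSeq span of Sez6l (112419151 to 112578535). The windows are chr2:27079129-27079428 on the plus strand for Adamtsl2, chr17:54298985-54299284 on the minus strand for Slc5a7, chr5:112577149-112577448 on the minus strand for Sez6l and chr7:27119705-27120004 on the plus strand for Cyp2f2.
Adamtsl2: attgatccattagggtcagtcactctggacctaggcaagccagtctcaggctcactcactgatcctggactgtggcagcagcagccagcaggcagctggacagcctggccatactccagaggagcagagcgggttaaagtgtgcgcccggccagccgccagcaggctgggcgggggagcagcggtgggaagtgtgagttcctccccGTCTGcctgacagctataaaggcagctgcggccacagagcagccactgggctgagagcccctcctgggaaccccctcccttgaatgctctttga
Slc5a7: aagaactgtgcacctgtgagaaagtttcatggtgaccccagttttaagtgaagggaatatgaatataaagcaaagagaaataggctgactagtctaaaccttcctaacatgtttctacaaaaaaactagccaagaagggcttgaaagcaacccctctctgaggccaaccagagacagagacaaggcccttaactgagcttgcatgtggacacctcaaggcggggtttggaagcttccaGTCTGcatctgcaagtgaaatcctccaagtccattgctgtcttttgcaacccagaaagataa
Sez6l: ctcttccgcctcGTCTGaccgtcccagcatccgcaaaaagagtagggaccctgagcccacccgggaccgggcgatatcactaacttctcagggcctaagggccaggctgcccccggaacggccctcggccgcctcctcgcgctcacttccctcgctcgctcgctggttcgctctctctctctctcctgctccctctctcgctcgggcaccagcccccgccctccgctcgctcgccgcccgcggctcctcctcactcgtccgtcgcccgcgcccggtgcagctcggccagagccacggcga
Cyp2f2: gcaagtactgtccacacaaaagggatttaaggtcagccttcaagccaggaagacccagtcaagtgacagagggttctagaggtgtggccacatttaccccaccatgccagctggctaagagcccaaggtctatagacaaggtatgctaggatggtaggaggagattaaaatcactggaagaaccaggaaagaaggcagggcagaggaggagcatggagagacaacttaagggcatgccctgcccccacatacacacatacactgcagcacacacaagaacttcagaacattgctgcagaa
The 3 windows of genes that rose each held 1 such box and that of Cyp2f2 held none. Over all called genes with a window the box was about as frequent as in the background. It was in 48.2% of 112 windows of genes that rose and 50.8% of 61 windows of genes that fell. The background was 47.7% of the 14961 windows of genes tested and 49.6% of all 32851 windows. A gene can have several windows or none, and these were windows of 89 genes that rose and 45 that fell. By gene the shares were 51.7% and 57.8%, against 52.65% of 11754 tested genes with a window. The full palindrome GTCTAGAC was in 1 of the 112 windows of genes that rose, in 0 of the 61 of genes that fell and in 0.281% of those of tested genes. A match is a description of the letters and not a binding site, and a window without one says nothing about the factor.

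**Figure D3:**
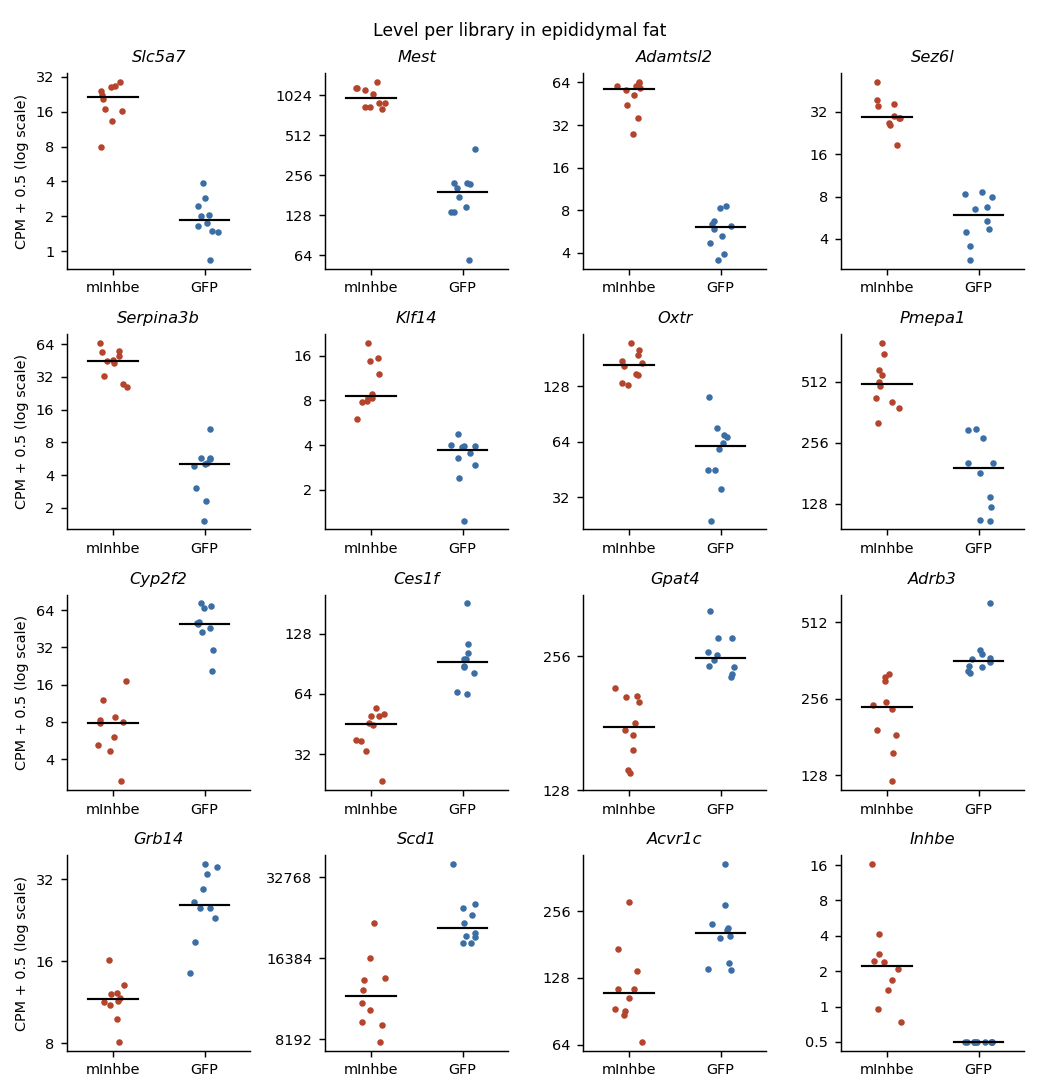
Level of 16 genes in each epididymal library as CPM + 0.5 on a log2 axis, mInhbe AAV left of GFP AAV, with a bar at the group median. From Slc5a7 to Pmepa1 the 10 mInhbe points lie above the 10 GFP points, from Cyp2f2 to Adrb3 they lie below, and for Grb14, Scd1 and Acvr1c the groups overlap.

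Other large rises included a hydrolase, a receptor and a lipase. Mest, a paternally expressed imprinted gene for a hydrolase that marks expanding fat depots in mice, was the most abundant of them. It had 804 to 1282 CPM (median 971) with mInhbe and 58.5 to 400 CPM (median 190) with GFP, for a log2 fold change of 2.38 ± 0.24 (adjusted p = 2.25e-06). The groups did not overlap, and GFP libraries 4 and 9 were the extremes of the GFP group. Oxtr, the oxytocin receptor, had 129 to 220 CPM (median 167) with mInhbe and 23.4 to 111 CPM (median 60.4) with GFP (1.50 ± 0.20, adjusted p = 0.000208). Again every mInhbe library was above every GFP library. Lipf, the gastric lipase, had 1.89 to 6.69 CPM (median 2.72) with mInhbe and was near the detection limit with GFP, at 0 to 0.530 CPM (median 0.153), without overlap (3.92 ± 0.39, adjusted p = 2.25e-06). Bpifb6, of the lipid-binding BPI fold family, had 0.682 to 6.34 CPM (median 3.69) with mInhbe and 0.228 to 0.752 CPM (median 0.391) with GFP (3.11 ± 0.36, adjusted p = 2.03e-05). Its lowest mInhbe library, 5, lay within the GFP range, and the other 9 lay above it.

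Other genes of the 20 largest rises lay between 1.47 and 2.00 on the log2 scale, apart from the Serpina3 genes. Among them were Mageb18 of the MAGE family (2.00), the potassium channel subunit gene Kcne1l (1.93), the imprinted zinc finger gene Klf14 (1.85), the secreted phospholipase gene Pla2g2e (1.72) and the vesicle calcium sensor gene Syt2 (1.58). Next came the mitochondrial amidoxime reductase gene Mtarc1 (1.56), the cartilage acidic protein gene Crtac1 (1.52), the secreted Wnt antagonist gene Sfrp5 (1.51), the desmosome gene Pkp1 (1.50) and the organic cation transporter gene Slc22a2 (1.47). All 20 were called in each of the 20 fits that left out 1 library. Without GFP libraries 7 and 8 together 19 of them were called, and Sfrp5 was not (1.43, adjusted p = 0.0600). Lamb3, a laminin chain of basement membranes, lay below these in size but had the fourth smallest p (1.36 ± 0.12, adjusted p = 2.91e-07) and was singled out after its values were seen.

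The falls were smaller, with a median of -0.75 over the 60, against 0.84 over the 113 rises. Lrtm1, a leucine-rich repeat membrane protein, had 0.371 to 1.28 CPM (median 0.624) with mInhbe and 1.97 to 4.24 CPM (median 3.08) with GFP, without overlap (-2.03 ± 0.23, adjusted p = 2.11e-05). Grb14, an adaptor that inhibits the insulin receptor, had 7.61 to 15.6 CPM (median 11.1) with mInhbe and 13.9 to 35.8 CPM (median 25.3) with GFP (-1.22 ± 0.15, adjusted p = 8.02e-05). Only the highest mInhbe library of Grb14 entered the GFP range. Ces1f, a carboxylesterase that hydrolyses lipid esters, had 22.9 to 53.8 CPM (median 44.7) with mInhbe and 63.3 to 181 CPM (median 91.7) with GFP, without overlap (-1.21 ± 0.19, adjusted p = 0.000908). The small neutral amino acid transporter gene Slc7a10 fell by 1.14 and the metalloprotease inhibitor gene Timp4 by 0.93.

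Also among the 15 largest falls were the corneodesmosin gene Cdsn (-1.46), 2010016I18Rik (-1.41), the exonuclease gene Pnldc1 (-1.33), the Cdc42 exchange factor gene Dock11 (-1.12), the Rab regulator gene Dennd2d (-1.08) and the lipogenic regulator gene Thrsp (-0.92). Of the 15, 12 were called whichever library was left out. The exceptions were the paraoxonase gene Pon1 (-1.34, adjusted p = 0.0495, called in 5 of the 20 fits), Hectd2os (-1.13, adjusted p = 0.0342, called in 10) and the transcriptional coactivator gene Ppargc1a (-1.10, adjusted p = 0.0370, called in 9). Without GFP libraries 7 and 8 Pon1 (-1.21, adjusted p = 0.130) and Ppargc1a (-0.82, adjusted p = 0.128) were not called. Hectd2os is antisense to Hectd2, and as it is not given whether counting used the strand, their reads cannot be told apart. Hectd2 itself was at 0.18 ± 0.33 (adjusted p = 0.847). Ephx2, the soluble epoxide hydrolase, was singled out after its values were seen because its groups did not overlap, with 116 to 199 CPM (median 167) under mInhbe and 242 to 349 CPM (median 313) under GFP (-0.88 ± 0.11, adjusted p = 8.02e-05).

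Counts in this and the following lists are to be set beside the shares over all genes, 0.761% higher and 0.404% lower. Of 18 targets and feedback regulators of SMAD2 and SMAD3, all tested, 3 rose and none fell. The median of the list was 0.24, against 0.000276 over all genes. Pmepa1, a membrane protein that holds back SMAD2 and SMAD3, had 320 to 797 CPM (median 497) with mInhbe and 105 to 298 CPM (median 191) with GFP, without overlap (1.43 ± 0.22, adjusted p = 0.000908). Ltbp3, which tethers latent TGF-beta in the matrix, had 234 to 439 CPM (median 300) with mInhbe and 147 to 240 CPM (median 200) with GFP (0.71 ± 0.11, adjusted p = 0.000807), and 9 of its 10 mInhbe libraries were above every GFP library. The focal adhesion scaffold gene Nedd9 rose by 0.81 ± 0.15 (adjusted p = 0.00608). The other 15 targets did not pass, among them Smad7 (0.34), Skil (0.30), Ccn2 (0.31) and Col1a1 (0.17). Over the whole list of 18, 15 values were positive and 3 negative, and none of the negative ones is named here. The 7 BMP targets tested had a median of -0.02 and none was called.

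Of 12 TGF-beta family receptor genes tested 1 rose, with a list median of -0.09. It was Acvr1b, the ALK4 receptor, with 28.6 to 57.5 CPM (median 44.1) under mInhbe and 27.1 to 44.8 CPM (median 32.1) under GFP (0.43 ± 0.10, adjusted p = 0.0292). The groups overlapped, and the call ended without GFP library 1 (adjusted p = 0.0643), 3 (0.0601) or 4 (0.0520) or without GFP libraries 7 and 8 together (0.0527). Of 20 ligand and antagonist genes tested 1 rose, with a list median of 0.04. This was Fstl3, the secreted activin-binding follistatin-like protein, at 0.65 ± 0.13 (adjusted p = 0.0118). It had 8.93 to 21.2 CPM (median 16.2) under mInhbe and 7.17 to 12.1 CPM (median 10.1) under GFP. Without GFP libraries 7 and 8 the list had 2 rises. The added one was Inhbe, the gene carried by the vector, which passed the low-count filter only there (8.67 ± 1.50, adjusted p = 0.0176). Follistatin itself, Fst, was at 0.03.

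Lipolysis, named in the series title, releases fatty acids from stored triglyceride under control of beta-adrenergic receptors and of inhibitory receptors on the fat cell. Of 21 lipolysis genes tested 1 rose and 2 fell, with a median of -0.21. The rise was in Ptger3, the inhibitory prostaglandin E receptor EP3, which had 17.1 to 39.0 CPM (median 26.8) with mInhbe and 7.22 to 17.1 CPM (median 12.1) with GFP (1.15 ± 0.19, adjusted p = 0.00152). All but 1 of its mInhbe libraries were above all GFP libraries. Adrb3, the beta-3 adrenergic receptor of mouse fat cells, had 121 to 321 CPM (median 237) with mInhbe and 322 to 608 CPM (median 361) with GFP (-0.73 ± 0.17, adjusted p = 0.0334). The groups met end to end without overlapping. Hcar1, the inhibitory lactate receptor, had 32.0 to 88.6 CPM (median 44.4) with mInhbe and 51.3 to 142 CPM (median 85.4) with GFP (-0.86 ± 0.20, adjusted p = 0.0292).

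Both calls lay close to the threshold, while the fold changes moved little. The Adrb3 call ended, at -0.67 to -0.74 and an adjusted p of 0.0509 to 0.0588, without GFP library 1 or 4 or without mInhbe library 1, 2, 5 or 6, and that of Hcar1 without GFP library 4 (-0.82, adjusted p = 0.0587) or mInhbe library 6 (-0.83, adjusted p = 0.0567). Without GFP libraries 7 and 8 the values were -0.60 (adjusted p = 0.0583) for Adrb3 and -0.70 (adjusted p = 0.0720) for Hcar1, no lipolysis gene was called lower, and the list median was -0.07. The lipases and their regulators did not pass, with Pnpla2, the gene of adipose triglyceride lipase, at -0.50 ± 0.15 (adjusted p = 0.162), Lipe at -0.10, Plin1 at -0.31, Abhd5 at -0.46, Pde3b at -0.62 and G0s2 at 0.25.

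In lipid synthesis the falls were few but included one of the most abundant transcripts. Scd1, the stearoyl-CoA desaturase, had 8013 to 22090 CPM (median 11830) with mInhbe and 18600 to 36620 CPM (median 21210) with GFP (-0.88 ± 0.17, adjusted p = 0.00784). Of the mInhbe libraries 9 lay below every GFP library, and mInhbe library 5 lay within the GFP range. Thrsp, a nuclear regulator of lipogenic enzymes, had 108 to 338 CPM (median 192) with mInhbe and 270 to 472 CPM (median 377) with GFP (-0.92 ± 0.17, adjusted p = 0.00593). These were the 2 falls among 17 lipogenesis genes tested, none of which rose, and the list median was 0.06 (-0.01 without GFP library 7). Fasn (-0.11), Acaca (-0.09), Acly (0.13) and Srebf1 (0.13) were near 0. Of 13 triglyceride synthesis genes 1 fell, at a median of -0.17. Gpat4, a glycerol-3-phosphate acyltransferase, had 140 to 217 CPM (median 177) with mInhbe and 229 to 323 CPM (median 253) with GFP, without overlap (-0.53 ± 0.10, adjusted p = 0.00500).

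Fatty acid oxidation genes were centred at -0.27, with 1 of 20, Ppargc1a, called lower and 19 negative. Without GFP library 8 that median was -0.09 and none was called. Of 24 oxidative phosphorylation genes none was called (median -0.02, and 0.12 with 18 positive without GFP library 8), nor any of 12 fatty acid uptake genes (-0.08) or 16 genes of branched-chain amino acid breakdown (-0.29). In the last of these lists Bcat2 (-0.53, adjusted p = 0.0669) and Mccc1 (-0.44, adjusted p = 0.0548) were closest to the threshold. Cholesterol synthesis genes had a median of 0.24, and 2 of 22 rose. Hmgcs1, which makes hydroxymethylglutaryl-CoA, was at 0.67 ± 0.16 (adjusted p = 0.0389, called in 12 of the 20 fits that left out 1 library), and the sterol-regulated gene Insig1 was at 0.65 ± 0.15 (adjusted p = 0.0308, called in 15). Of 14 genes of insulin signalling and glucose uptake Grb14 alone was called and the median was -0.22, with the glucose transporter gene Slc2a4 at -0.52. Of 14 choline and phospholipid genes Slc5a7 rose and Enpp2, the secreted enzyme autotaxin that makes lysophosphatidic acid, fell (-0.54, adjusted p = 0.0413, called in 8 of the 20 fits, and 0.0512 without GFP libraries 7 and 8), at a list median of -0.10. Of 5 carboxylesterases tested 2 fell, Ces1f and Ces1d (1 without GFP library 7). Ces1d had 389 to 733 CPM (median 633) with mInhbe and 653 to 1338 CPM (median 886) with GFP (-0.59 ± 0.14, adjusted p = 0.0417, called in 8 of the 20 fits).

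**Figure D4:**
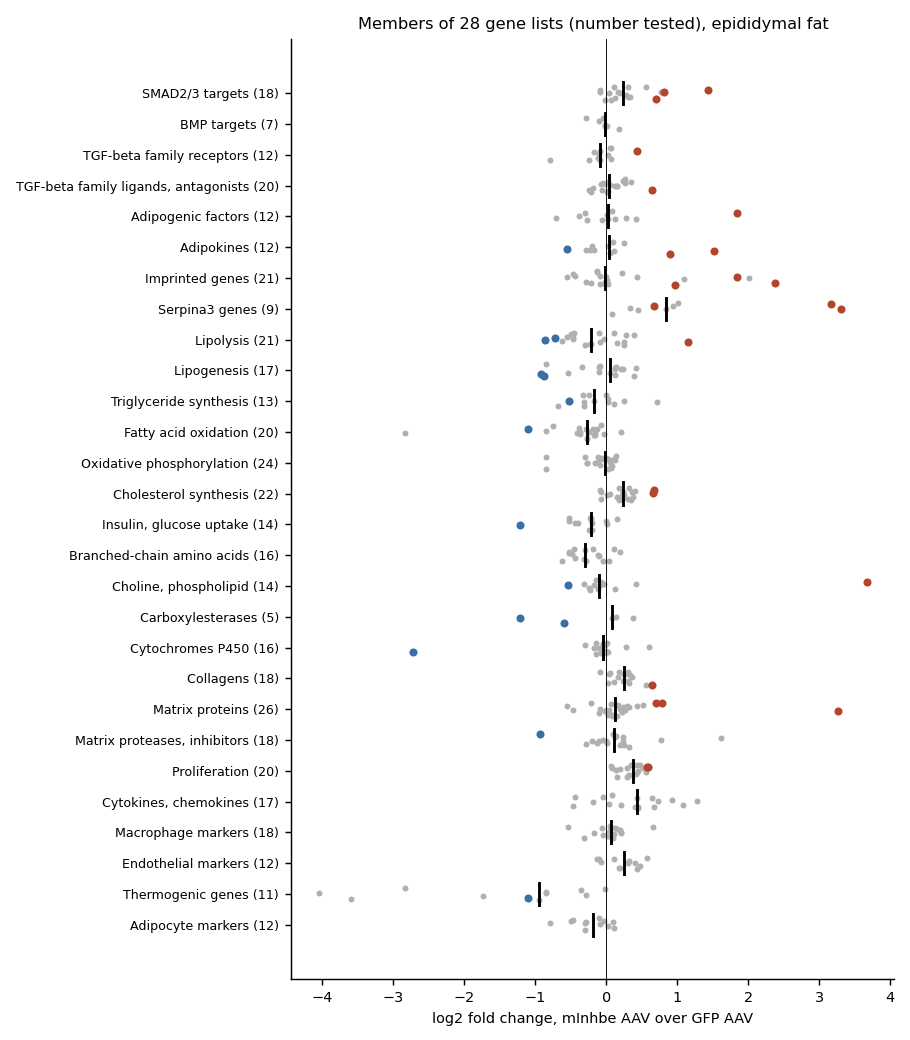
Log2 fold change of mInhbe AAV over GFP AAV for every tested member of 28 gene lists, with the number tested in brackets, red for called rises, blue for called falls, grey for the rest and a black bar at the list median. Most medians lie near 0; the thermogenic list, at -0.94, is at 0.20 without GFP library 8.

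Of 21 imprinted genes tested 3 rose and none fell, while the list median was -0.02. Besides Mest these were its neighbour on chromosome 6 Klf14, a maternally expressed transcription factor linked in humans to gene expression in fat, and the retrotransposon-derived gene Peg10. Mest (chromosome 6, 30733506 to 30748466 in GRCm38.p6) and Klf14 (30956021 to 30958990) are 207554 bases apart. Klf14 had 5.52 to 19.1 CPM (median 8.10) with mInhbe and 0.740 to 4.25 CPM (median 3.20) with GFP, without overlap (1.85 ± 0.26, adjusted p = 0.000382). Peg10 had 10.7 to 44.9 CPM (median 15.1) with mInhbe and 8.44 to 12.5 CPM (median 9.24) with GFP (0.97 ± 0.22, adjusted p = 0.0279). The mInhbe libraries 5, 9 and 10 were the highest for Peg10, and its call ended without GFP library 3 (adjusted p = 0.0559) or mInhbe library 9 (0.0592). Peg3 (1.10, adjusted p = 0.126) and Zim1 (2.01, adjusted p = 0.0616) did not pass with all libraries. Without GFP library 7 both were called (Peg3 at 1.38, adjusted p = 0.0105, and Zim1 at 2.36, adjusted p = 0.0183), and 5 imprinted genes rose, at a list median of 0.01.

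The 9 tested Serpina3 genes, a cluster of serine protease inhibitors on chromosome 12 that mice expanded, were all positive with a median of 0.84, and 3 rose. Serpina3b had 25.3 to 65.5 CPM (median 44.4) with mInhbe and 1.02 to 10.2 CPM (median 4.58) with GFP, without overlap (3.31 ± 0.30, adjusted p = 7.10e-07). Serpina3a was lower, at 1.33 to 4.09 CPM (median 2.05) with mInhbe and 0 to 1.62 CPM (median 0.108) with GFP (3.17 ± 0.54, adjusted p = 0.00253). Its GFP maximum was library 8, and without GFP libraries 7 and 8 its change was 4.52. Serpina3c, the most abundant of the 3, was at 0.67 ± 0.15 (adjusted p = 0.0217), and this call ended without mInhbe library 1 (0.0503). The genes are close copies, so the split of reads among them is uncertain.

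Among 12 adipokine genes 2 rose and 1 fell, with a median of 0.04. Sfrp5 had 38.7 to 169 CPM (median 88.2) with mInhbe and 9.91 to 58.1 CPM (median 32.2) with GFP (1.51 ± 0.32, adjusted p = 0.0178), and 8 mInhbe libraries were above all GFP libraries. Apln, the apelin precursor, had 11.6 to 21.1 CPM (median 15.8) with mInhbe and 3.93 to 12.3 CPM (median 8.67) with GFP (0.89 ± 0.17, adjusted p = 0.00636). Nampt, an enzyme of NAD synthesis that is also secreted, was at -0.55 ± 0.14 (adjusted p = 0.0495, and 0.137 without GFP libraries 7 and 8) and was called in 4 of the 20 fits that left out 1 library. The leptin gene Lep was at 0.24 ± 0.17 (adjusted p = 0.592). Of 12 adipogenic factor genes Klf14 alone was called (median 0.02), and no member of the 12 fat-cell markers was called (median -0.19). In whole tissue such a level cannot tell fewer cells of a type from less RNA in each.

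Of 26 matrix protein genes 3 rose and none fell (median 0.13): Adamtsl2, the proteoglycan biglycan Bgn and the glycoprotein tenascin C Tnc. Bgn had 541 to 923 CPM (median 760) with mInhbe and 320 to 642 CPM (median 496) with GFP (0.70 ± 0.11, adjusted p = 0.00113). Tnc had 15.0 to 38.6 CPM (median 24.3) with mInhbe and 8.87 to 19.8 CPM (median 13.9) with GFP (0.79 ± 0.15, adjusted p = 0.00784). Among 18 collagen genes 17 were positive (median 0.26) and 1 rose, the basement membrane gene Col4a2 (0.65 ± 0.15, adjusted p = 0.0301). That call ended without GFP library 1 (0.0506), 3 (0.0576) or 10 (0.0640), without mInhbe library 1 (0.0610) or without GFP libraries 7 and 8 together (0.0512). Of 18 proteases and inhibitors Timp4 alone was called, lower, with 38.8 to 127 CPM (median 82.7) under mInhbe and 95.8 to 215 CPM (median 170) under GFP (-0.93 ± 0.19, adjusted p = 0.00970). Other abundant genes also changed. The actin-severing gelsolin gene Gsn fell by 0.82, the tubulin gene Tuba1a rose by 1.18 (adjusted p = 0.0157, and 0.0521 without GFP libraries 7 and 8), and the autophagy gene Trp53inp2 rose by 0.73.

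All 20 proliferation genes were positive, with a median of 0.37, and 2 rose, the spindle gene Tpx2 (0.59 ± 0.13, adjusted p = 0.0164) and the cyclin gene Ccna2 (0.57 ± 0.14, adjusted p = 0.0495). Ccna2 was called in 4 of the 20 fits that left out 1 library and not without GFP libraries 7 and 8 (adjusted p = 0.0989), and without GFP library 8 there were 5 rises in the list. Levels were low, with Tpx2 at 4.81 to 7.76 CPM (median 6.47) under mInhbe and 3.21 to 6.20 CPM (median 4.27) under GFP. No cytokine or chemokine gene of 17 tested was called (median 0.43), and Ccl2 was at 1.08 ± 0.34 (adjusted p = 0.178, and 1.46 at 0.0234 without GFP libraries 7 and 8). Of 18 macrophage markers none was called (median 0.06). Their summed level was 1044 to 2187 CPM (median 1624) with mInhbe and 1184 to 2077 CPM (median 1463) with GFP, a difference of 0.02 on the log2 scale (two-sided permutation p = 0.872). Itgax, the CD11c integrin of dendritic cells and some macrophages, was the 1 called gene of 14 in the list of lipid-associated macrophage genes (0.75 ± 0.15, adjusted p = 0.00857), at 10.7 to 23.2 CPM (median 16.4) with mInhbe and 8.03 to 13.4 CPM (median 9.67) with GFP. Endothelial markers had a median of 0.26 and none of 12 was called (1 rose without GFP library 7), with Tie1 at 0.48 (adjusted p = 0.0577).

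Thermogenic genes had a median of -0.94 over 11 genes, all negative, of which Ppargc1a fell. Without GFP library 8 the median was 0.20 and 1 gene rose, the proton channel gene Otop1 (2.42 ± 0.43, adjusted p = 0.00397). The skeletal muscle list went likewise, at -1.99 with all libraries and -0.35 without GFP library 8, as did the B cell list, at -0.92 and -0.05. Of 6 marker sums tested with 100000 permutations the liver list alone differed (0.49 on the log2 scale, adjusted p = 0.0127). Of that sum 99.3 to 99.9% was Trf, the transferrin gene, which fat also expresses. With all libraries Trf was not called (0.49 ± 0.14, adjusted p = 0.119). It was called without GFP library 7 (0.56, adjusted p = 0.0368) or without mInhbe library 4 (0.57, adjusted p = 0.0231). With GFP libraries 7 and 8 both left out no gene of the liver list was called. The 11 genes without Trf differed by -0.22 (two-sided permutation p = 0.309). None of the 10 major urinary protein genes was high enough to be tested in epididymal fat.

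The same vectors in subcutaneous fat gave 27.2% of 13990 genes called, 15.8% higher and 11.4% lower. Of the 60 epididymal falls 59 were tested there, and 40 fell and none rose, at a median of -0.59. Of the 113 epididymal rises 104 were tested there, and 27 rose and none fell, at a median of 0.18. Adamtsl2 (3.12 ± 0.38 in subcutaneous fat), Sez6l (2.94 ± 0.27), Mest (2.10 ± 0.28) and Cyp2f2 (-2.51 ± 0.17) also changed there, and their interaction with depot did not pass. The interaction test called 13.5% of 15416 genes, 4.09% more positive in epididymal fat and 9.41% more negative. Among the 113 epididymal rises 45 were called and all were more positive in epididymal fat, and among the 60 falls 15 were more negative and 2 more positive. These members were chosen for a change in epididymal fat, which favours that direction. The test treats the libraries as independent, although 10 mice per vector would mean that the depots share mice, and the labels do not say which libraries do. With same-numbered libraries of a vector taken as 1 mouse, 4 genes in all were called, 1 more positive and 3 more negative. Apart from Ptprc (adjusted p = 0.0552 with that block) and Cidea, 21 named genes with a called interaction were followed. The block left Dock11 (-1.46, adjusted p = 0.0383) and Dennd2d (-1.26, adjusted p = 0.0447) called. The other 19 kept their sign with an adjusted p of 0.0552 to 0.0967. The Cidea interaction was -3.26 (adjusted p = 0.0329), -0.24 with the block (adjusted p = 0.855) and 0.01 without GFP library 8. The deviations of same-numbered libraries in the 2 depots correlated at a median of -0.0995 with mInhbe and 0.0322 with GFP. The best match was the same number for 3 of 10 GFP libraries and 0 of 10 mInhbe libraries. As 2 depots of 1 mouse need not deviate alike, these values cannot decide whether the numbers mark mice.

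Klf14 is an example, with 1.85 in epididymal fat, 0.28 ± 0.26 in subcutaneous fat and an interaction of 1.56 (adjusted p = 0.0130, and 0.0552 with the mouse as a block), while its neighbour Mest rose in both depots. Crtac1 (interaction 1.59), Mtarc1 (1.55), Slc22a2 (1.83) and Sfrp5 (1.37) rose in epididymal fat and were between -0.38 and 0.13 in subcutaneous fat. Among the falls Dock11 (-1.49), 2010016I18Rik (-1.49), Ppargc1a (-1.36) and Dennd2d (-1.31) were likewise more negative in epididymal fat, at 0.07 to 0.34 in subcutaneous fat. Ptger3 rose by 1.15 in epididymal fat and was at 0.31 ± 0.18 in subcutaneous fat (interaction 0.82, adjusted p = 0.0324, and 0.0967 with the block). Ctnnbip1, which blocks beta-catenin from binding TCF factors, had the smallest interaction p of the positive sign (0.60 in epididymal and -0.17 in subcutaneous fat, interaction adjusted p = 0.0112, and 0.0552 with the block). The leukocyte gene Ptprc was among the smallest of the negative sign (-0.37 and 1.03, interaction -1.41). Beside these values, 13 B cell and lymph node markers summed to 983 to 1766 CPM with mInhbe and 728 to 1442 CPM with GFP in subcutaneous fat, and to 43.8 to 131 and 47.0 to 155 CPM in epididymal fat. Their part in the interaction was not tested.

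**Figure D5:**
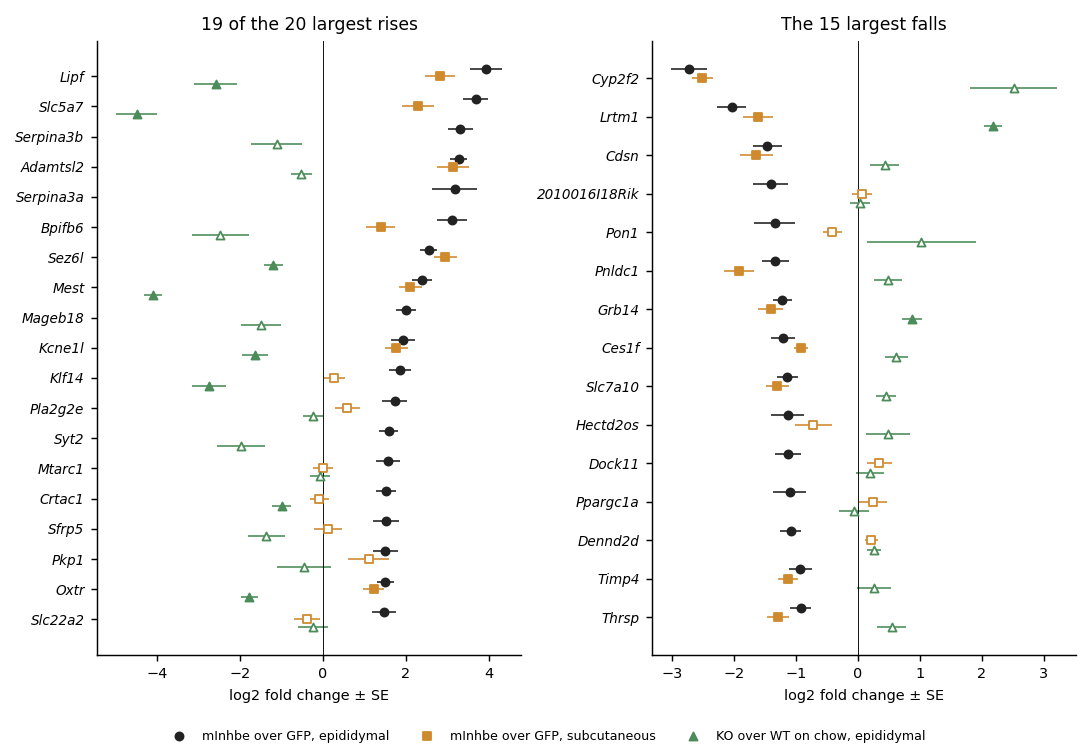
Log2 fold change ± SE of 19 of the 20 largest rises and of the 15 largest falls of epididymal fat in 3 comparisons, with filled symbols for called values and open ones for values that were not called. Every KO value (triangle) plotted for a rise lies below 0, and the subcutaneous values (squares) of Klf14, Mtarc1, Crtac1 and Sfrp5 lie near 0.

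The loss of Inhbe in epididymal fat on chow offered an independent set of mice and libraries for the same genes. Inhbe itself had no counts in any KO or WT library of this depot, so the fat does not check the genotype labels. The contrast of KO with WT on chow came from a fit that also held the epididymal libraries of both genotypes on high-fat diet. In this contrast 0.658% of 15042 genes were called, 0.173% higher and 0.485% lower. Of the 112 vector rises tested there 26 fell in KO and none rose, and 98 were negative, with a median of -0.41 against -0.02 over all shared genes. The 26 were 23.2% of the vector rises and 37.1% of the 70 KO falls tested with the vector. Of the 60 vector falls 4 rose in KO and none fell, namely Cdkn2c, Grb14, Lrtm1 and Slc25a10, and 54 were positive, with a median of 0.27. These 4 were 6.67% of the vector falls and 16% of the 25 KO rises tested with the vector.

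Several of the largest vector rises were falls in KO. Slc5a7 had 0.324 ± 0.294 CPM in KO (SD, n = 7) and 7.81 ± 4.09 CPM in WT (n = 8), a log2 fold change of -4.49 ± 0.49 (adjusted p = 9.59e-07). Mest had 11.8 ± 2.78 CPM in KO and 206 ± 48.4 CPM in WT, at -4.09 ± 0.22 (adjusted p = 6.62e-14). Klf14 (-2.73), Lipf (-2.59), Pmepa1 (-2.08), Oxtr (-1.78), Kcne1l (-1.64), Sez6l (-1.20) and Crtac1 (-0.99) also fell in KO. Over the 20 largest vector rises 19 were tested in KO, all were negative and 8 fell, with a median of -1.36. Adamtsl2, the vector rise with the smallest p, was at -0.52 ± 0.26 in KO and did not pass (adjusted p = 0.847). Cyp2f2 had 295 ± 91.4 CPM in KO and 52.4 ± 21.2 CPM in WT and did not pass either (2.52 ± 0.70, adjusted p = 0.121), while Lrtm1 rose by 2.18 ± 0.14. Lipid genes that fell with the vector included Scd1 (0.23 in KO), Thrsp (0.55), Gpat4 (0.37), Ces1f (0.62) and Adrb3 (0.04). None of these was called in KO, nor was Ces1d, Hcar1, Enpp2, Ppargc1a or Ephx2. The epididymis sum was 8.13 to 12460 CPM (median 1786) in KO and 1.92 to 5291 CPM (median 21.6) in WT, and its part in these values was not tested.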

How the data were processed

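Libraries were grouped by depot, vector and genotype from the sample titles. The deposited tables hold estimated counts per Entrez gene ID, made by the authors against mm10 per the submitters' processing notes; the aligner, the counter, the use of molecular identifiers and the use of strand are not stated there or in the labels. Of the values in the vector experiment 2.95% were not whole (tolerance 1e-06), and all were rounded. Gene symbols came from RefSeq for GRCm38.p6 (24375 of 24475 IDs matched). The limits of 3 counts cover counting error only. The SE, the SD and the p-values measure the spread between the labelled replicates.

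Tests were edgeR 4.0.16 quasi-likelihood fits (glmQLFit, robust, TMM, R 4.3.3), with filterByExpr at a minimum count of 10. Benjamini-Hochberg adjustment ran over all genes tested, at 0.05. The vector fits used the libraries of each comparison. The fit for KO against WT on chow also held the KO and WT epididymal libraries on high-fat diet. Its filter, scaling and spread therefore rest on both diets. The SE of a log2 fold change is its size over the root of F. On simulated data for the epididymal comparison (14850 genes) 37.3% of 1.5-fold, 86.6% of 2-fold and 100% of 4-fold changes were recovered. The simulated counts held no library set apart as GFP library 8 was, so these shares do not cover genes with such a library. An example is Dio2, with 67.0 CPM in GFP library 8, which was at -4.04 and not called (edgeR adjusted p = 0.0797). Marker sums and correlations used permutation tests with 100000 resamples on log2 values. CPM values are per 1000000 of the library total, without TMM. Alternatives were RLE size factors, DESeq2 1.42.0, limma 3.58.1 (voom with quality weights), no filter, a replicate block, an epididymis score, libraries left out, other totals and a fit of all 40 vector libraries.

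Named genes were Inhbe and Acvr1c, the 20 largest rises and 15 largest falls with a mean of at least 1 CPM, the 8 called genes of highest level, up to 4 called members of each of 49 lists (or the 2 of smallest p where none was called) and the 6 interactions of smallest p in each direction. Some genes are not reported here. The genes and lists were chosen with earlier results of these data known.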

Additional observations from a re-analysis of the deposited data

Results flagged for a closer look

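In groups of 10 libraries, 9 of 142 groups examined had an extreme library far from the nearest other by Dixon's criterion, which chance alone gives in about 1 of 20 groups. GFP library 7 was the highest for Scd1 (36620 CPM) and Adrb3 (608 CPM) and the lowest for Pkp1 (0.166 CPM) and for the epididymis sum (4.31 CPM). GFP library 8 was the highest for Serpina3a (1.62 CPM) and the thermogenic sum (1596 CPM). GFP library 9 was the lowest for Klf14 (0.740 CPM) and Crtac1 (2.62 CPM), and GFP library 5 for Mageb18 (0.212 CPM). None of the 9 was an mInhbe library. By another measure, over all genes, an mInhbe library did stand apart. The chi-square per degree of freedom between mInhbe library 7 and each other mInhbe library was 296 to 405. No other pair within either group passed 187, the value of GFP libraries 7 and 8. Without mInhbe library 7, 155 genes were called, 108 higher and 47 lower. The cause was not tested.

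For 21 named genes listed here the effect of the vector differed between depots by edgeR's interaction test, and Ptprc and Cidea are given elsewhere. As epididymal minus subcutaneous log2 fold change, the positive differences were 1.83 for Slc22a2, 1.71 for Bpifb6, 1.59 for Crtac1, 1.56 for Klf14, 1.55 for Mtarc1, 1.37 for Sfrp5, 1.10 for Tuba1a, 0.83 for Apln, 0.82 for Ptger3, 0.79 for Col4a2, 0.78 for Trp53inp2, 0.78 for Insig1, 0.76 for Ctnnbip1 and 0.56 for Serpina3c. The negative ones were -1.49 for 2010016I18Rik, -1.49 for Dock11, -1.36 for Ppargc1a, -1.31 for Dennd2d, -0.99 for Acvr1c, -0.68 for Nampt and -0.66 for Enpp2. With same-numbered libraries of a vector taken as 1 mouse, 2 of the 21 (Dock11 and Dennd2d) were called and the other 19 were not. Without that block their adjusted p ran from 0.00251 for Dennd2d to 0.0496 for Sfrp5, and without GFP libraries 7 and 8 the interaction of Sfrp5 did not pass (1.29, adjusted p = 0.0860).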

How the results depend on the processing

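The count of 173 called genes (113 higher, 60 lower) moved with several settings. It was 314 with DESeq2 (201 higher, 113 lower), 338 with limma-voom and quality weights (195 and 143), 340 with all 40 vector libraries in 1 fit (192 and 148) and 262 with an epididymis score as covariate (174 higher). RLE size factors gave 191, no low-count filter 143. Of the 173, DESeq2 called 173, limma-voom 166, the fit of 40 libraries 160 and the epididymis score 173. Leaving out 1 library gave 122 to 226 calls, 85 to 137 higher and 32 to 96 lower. With the replicate number as a block, which is no pairing in the labels, there were 76 calls (50 higher, 26 lower); deviations of same-numbered libraries correlated at -0.413 to 0.54, over 0.1 in 4 of 10 pairs, and no library correlated best with its own number. The depot interaction had 2081 calls. It had 4707 with limma-voom (1882 more positive, 2825 more negative), 970 more positive with DESeq2, and 4 with an animal block (1 and 3), and 1674 to 2215 without GFP library 7 or 8. The liver marker difference was 0.0187 as a mean of log2(CPM + 1) (adjusted p = 0.830). Rnase10, at 2.85, was reversed with DESeq2 (-3.91, and -4.43 for the interaction), and the Cidea interaction was -3.44 without GFP library 7 and 0.0105 without GFP library 8. The cause was not tested. Of 63 called genes chosen by the naming rule, 26 did not pass with the block, 15 in at least 1 fit that left out a library, 11 without GFP libraries 7 and 8, 5 without a filter and 1 each with limma-voom and the fit of 40 libraries; none changed direction. At this depth and spread many changes under 2-fold would not be called.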

Other observations

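The genes in these paragraphs were chosen after their values were seen. Of the called genes 89 rises and 47 falls were on no list. Among cell surface receptors Ret, a receptor tyrosine kinase of neurotrophic factors, averaged 48.0 CPM with mInhbe and 27.3 CPM with GFP (0.82 ± 0.14, adjusted p = 0.00262). Il4ra, the interleukin-4 receptor, averaged 59.5 CPM with mInhbe and 37.4 CPM with GFP (0.67 ± 0.13, adjusted p = 0.00636). Met, the hepatocyte growth factor receptor, averaged 38.2 CPM with mInhbe and 69.7 CPM with GFP (-0.87 ± 0.16, adjusted p = 0.00500). Of genes for adhesion to the matrix, the integrins Itga7 (0.74) and Itgb5 (0.59) and the laminin gene Lamb3 rose. Fam20c, a kinase of secreted proteins, averaged 55.2 CPM with mInhbe and 27.7 CPM with GFP (1.01 ± 0.16, adjusted p = 0.00141), and its relative Fam20a was at 0.63 ± 0.13 (adjusted p = 0.00922). The vascular genes Angpt1 (-0.65) and Thbd (-0.73) fell. Rab15, an endosomal GTPase, had 22.1 to 68.7 CPM (median 36.6) with mInhbe and 7.29 to 21.7 CPM (median 14.7) with GFP, and it fell in KO (-1.14 ± 0.24, adjusted p = 0.0116).

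Without GFP libraries 7 and 8, 27 further genes were called, 21 higher and 6 lower, and Inhbe itself was among those higher. The imprinted zinc finger gene Peg3 had 60.6 to 274 CPM (median 131) with mInhbe and 32.4 to 161 CPM (median 51.2) with GFP, where library 7 was the highest. It was at 1.31 ± 0.28 without the pair (adjusted p = 0.0214) and at 1.10 ± 0.32 with all libraries (adjusted p = 0.126), and it fell in KO (-2.20 ± 0.33, adjusted p = 0.000202). Emp1, an epithelial membrane protein, had 572 to 1146 CPM (median 800) with mInhbe and 384 to 875 CPM (median 485) with GFP, and library 7 was again the highest of the GFP group. It was at 0.68 ± 0.14 without the pair (adjusted p = 0.0131) and fell in KO (-2.05 ± 0.18, adjusted p = 4.97e-09). Otop1 had 0.682 to 5.32 CPM (median 2.89) with mInhbe and 0.106 to 54.4 CPM (median 0.526) with GFP, where library 8 held the highest level and the next GFP library 1.77 CPM.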
